A study of Mus musculus with 7 samples.

Results

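The cation-chloride cotransporters move chloride across the cell membrane together with potassium or with sodium and potassium. The 7 genes described here are Slc12a5 (KCC2, ENSMUSG00000017740), Slc12a4 (KCC1, ENSMUSG00000017765) and Slc12a7 (KCC4, ENSMUSG00000017756), which encode potassium-chloride exporters, Slc12a2 (NKCC1, ENSMUSG00000024597), which encodes the sodium-potassium-chloride importer, and the kinase genes Wnk1 (ENSMUSG00000045962), Stk39 (SPAK, ENSMUSG00000027030) and Oxsr1 (OSR1, ENSMUSG00000036737). They were taken by symbol, and each symbol matched 1 of the 31053 genes of the deposited matrices.

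KCC2 is the chloride exporter of neurons, and its known appearance during maturation lowers intracellular chloride, so that GABA and glycine receptors come to hyperpolarize the cell. NKCC1 brings chloride in, is known from immature neurons, glia and oligodendrocyte lineage cells, and takes part in ion transport at the choroid plexus. WNK kinases activate SPAK and OSR1, and these phosphorylate both kinds of carrier, which activates NKCC1 and inhibits the KCC exporters.

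Hippocampi of postnatal day 0 mice were dissociated with trypsin and plated on poly-D-lysine-coated coverslips in a medium with B-27 and serum, and 10x Genomics 3' v2 libraries of single cells were made after 1, 3, 5 or 7 days in vitro (DIV). There was 1 library at DIV1 and there were 2 at each of DIV3, DIV5 and DIV7. All groups share this preparation, and the labels name no strain, sex, genotype or treatment. Whether the 2 libraries of a day came from separate cultures is not stated in the labels, and every p-value therefore speaks only of how far these 7 libraries scatter, which may be a technical scatter. Days are therefore days of culture, and the cells are dissociated cells on glass, not the intact hippocampus.

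The 7 libraries held 28846 barcodes, of which 26709 passed the limits of 500 detected genes or more and 10% mitochondrial UMIs or less (a UMI, or unique molecular identifier, stands for 1 captured transcript end). After removal of 177 called doublets, 26532 cells were used. DIV3 replicate 1 stood apart in depth, with 114119537 UMIs and a median of 19595 per barcode, while the other 6 libraries held 36226566 to 63181816 UMIs with medians from 6988. DIV7 replicate 1 stood apart in RNA quality, with 15.79% of barcodes over the mitochondrial limit against 1.0% to 5.34% in the others. Of 26306 distinct barcodes, 401 occurred in 2 or more libraries. Results that rest on either library are given with and without it.

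Cells were put into classes by clusters made without the 7 genes, and the classes are named after their markers. The granule neuron-like class (Prox1, Neurod1) had 1627 cells, the pyramidal neuron-like class (Neurod6, Neurod2, Slc17a7) 2270 and the GABAergic neuron-like class (Gad1, Gad2, Slc32a1, Sst) 453. DIV7 replicate 2 had 36 granule, 62 pyramidal and 25 GABAergic cells, and each DIV3 library had 28 GABAergic cells, so these values rest on few cells. Radial glia or astrocyte-like cells (Slc1a3, Aldoc, Fabp7; astrocyte-like below) numbered 4939. None was from DIV1, where the naming threshold set this: unnamed cluster 0 (Hes5, Vgf), with 874 of its 1063 cells from DIV1, scored highest on that marker list but at 0.206, under the minimum of 0.25, and resolution 2 put 72 DIV1 cells into a cluster of that name. Oligodendrocyte lineage-like cells numbered 730, ciliated-like cells 1034, microglia-like cells 936 and fibroblast-like cells 1991. No cluster could be named choroid plexus at the resolution used: choroid-marker cells are the 368 cells with UMIs of at least 3 of 12 choroid plexus genes such as Ttr, Folr1 and Otx2. This gate was chosen with Slc12a2 levels in view and favours deeply sequenced cells, with a median of 16002.5 UMIs. A level is given in CPM, the UMIs of the gene in all cells of a class and library, divided by all UMIs of those cells and scaled to a total of 1000000. Levels of different genes are not set against each other, since capture at the 3' end differs between genes and is unknown here.

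RefSeq lists 2 transcription starts for Slc12a5 in GRCm38.p6, both on the plus strand, and the gene is known to give isoforms that differ at their N-terminal end. The 250 bases before each start are shown because Slc12a5 is the member whose level moved with the days. The counts were made on another build (mm9), so these coordinates serve for the sequence only, and 3' counts cannot tell which start a transcript used. Capitals mark a CACGTG E-box, the motif read by USF factors.
Slc12a5 start 1, chr2:164960596-164960845: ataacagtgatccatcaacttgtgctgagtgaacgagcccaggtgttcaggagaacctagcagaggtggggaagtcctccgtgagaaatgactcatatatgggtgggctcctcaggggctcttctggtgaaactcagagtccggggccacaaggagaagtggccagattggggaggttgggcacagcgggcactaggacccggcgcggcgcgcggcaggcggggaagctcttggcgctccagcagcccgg
Slc12a5 start 2, chr2:164967738-164967987: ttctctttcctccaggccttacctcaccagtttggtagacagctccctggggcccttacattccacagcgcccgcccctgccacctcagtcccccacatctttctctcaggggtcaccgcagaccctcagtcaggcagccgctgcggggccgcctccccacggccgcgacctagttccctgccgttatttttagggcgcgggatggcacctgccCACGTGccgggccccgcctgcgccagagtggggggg
Windows of 300 bases (250 before and 50 after each start) were searched on both strands for CACGTG, for the EGR motifs GCGTGGGCG and GCGGGGGCG, and for the cyclic AMP response element TGACGTCA. The window of start 2 held CACGTG at 164967952 to 164967957, 36 bases before the start, as did 7.15% of 32851 RefSeq mouse promoter windows of that length. The EGR motifs were in neither Slc12a5 window and in 0.612% and 2.91% of all windows, and TGACGTCA was in neither and in 1.79%. Both windows were GC-rich, at 63.7% and 68.3% against a median of 52.7%. Among the other members, both Slc12a7 windows held the same CACGTG and the Oxsr1 window held TGACGTCA. A window was found for 6 of the 7 genes. A match is a description of the letters only.

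Slc12a5, the exporter, rose from DIV3 to DIV7 in all 3 neuron classes, and in each class every DIV5 and DIV7 library lay above every DIV1 and DIV3 library. The early GABAergic level was not low throughout: 1 DIV3 library stood at 34.4 CPM, the level of pyramidal cells at DIV5. In pyramidal neuron-like cells its level was 6.59 CPM at DIV1, 4.86 and 8.81 in the DIV3 pair (replicates 1 and 2), 34.3 and 38.3 in the DIV5 pair, and 59.98 and 81.4 in the DIV7 pair. The DIV7 libraries, the DIV5 libraries and the 3 earlier libraries did not overlap. How many of all genes separate the days in this way was not worked out. From DIV3 to DIV7 the level rose 10.1-fold, a log2 change of 3.34 ± 0.32 (SE; 2 libraries against 2; edgeR quasi-likelihood test, adjusted p = 0.000286), and 11.0% of the 13041 genes tested in this comparison were called. By DIV5 it was 5.27-fold above DIV3 (log2 2.40 ± 0.31, adjusted p = 0.00713), in a comparison where 0.920% of genes were called. From DIV5 to DIV7 the log2 change was 0.94 ± 0.29 and missed the threshold (adjusted p = 0.545). In that last comparison 0 of 13041 genes (0.00%) were called by edgeR, 862 had an unadjusted p under 0.05, and DESeq2 called 7. Without either DIV3 replicate 1 or DIV7 replicate 1, or any other library, the DIV7 to DIV3 change stayed between 2.96 and 3.77 and was called. The DIV5 to DIV3 call was lost when neurons were taken by marker UMIs instead of clusters (2.33, adjusted p = 0.0841).

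**Figure D1:**
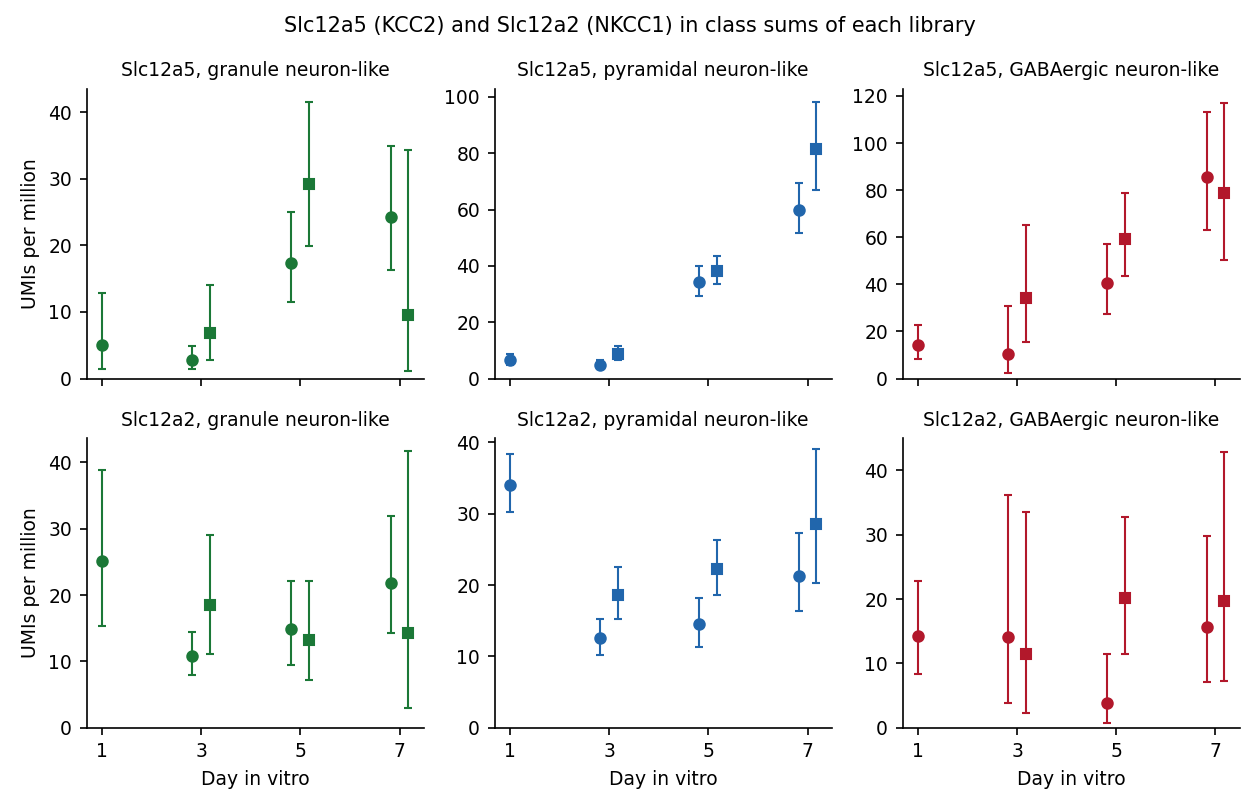
Slc12a5 (top) and Slc12a2 (bottom) in CPM against day in vitro, for the granule, pyramidal and GABAergic neuron-like sums. Circles are DIV1 and replicate 1, squares are replicate 2, and bars are exact 95% Poisson intervals, which cover counting error only. Slc12a5 in the pyramidal panel runs from 4.86 and 8.81 in the DIV3 pair to 59.98 and 81.4 in the DIV7 pair. Slc12a2 there lies between 12.5 in a DIV3 library and 34.1 at DIV1, a day that was not tested.

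In granule neuron-like cells Slc12a5 stood at 5.03 CPM at DIV1, 2.76 and 6.84 in the DIV3 pair, 17.3 and 29.2 in the DIV5 pair, and 24.3 and 9.51 in the DIV7 pair. Every DIV5 and DIV7 library was above every earlier one, though the 9.51 of DIV7 replicate 2 rests on 2 UMIs in 36 cells. The DIV1 value rests on 4 UMIs, in cells whose granule name depended in part on the cluster resolution (below). The rise from DIV3 to DIV7 was 5.48-fold (log2 2.45 ± 0.57, adjusted p = 0.0223), where 3.54% of 10018 genes were called. From DIV3 to DIV5 it was 5.88-fold (log2 2.56 ± 0.52, adjusted p = 0.0230), where 0.948% were called, and from DIV5 to DIV7 the log2 change was -0.10 ± 0.50 (adjusted p = 1), where 0 genes (0.00%) were called by edgeR, 390 had an unadjusted p under 0.05 and DESeq2 called 1. These granule calls rest on single libraries. The DIV7 to DIV3 call was lost without DIV3 replicate 1 (log2 1.65, adjusted p = 0.404) and without DIV7 replicate 1 (1.33, adjusted p = 0.707). The DIV5 to DIV3 call was lost without DIV3 replicate 1 (1.75, adjusted p = 0.746), without DIV5 replicate 2 (2.16, adjusted p = 0.0764) and without DIV7 replicate 1 (2.56, adjusted p = 0.0529), which enters only through the shared spread. DESeq2 called neither, with log2 changes of 2.19 (adjusted p = 0.248) and 2.44 (adjusted p = 0.228), and the stricter cell filter gave 1.61 and 2.00 with no call. By edgeR the DIV5 to DIV3 call was also lost with neurons taken by marker UMIs (2.295, adjusted p = 0.113). The same held with only the libraries of both days (2.59, adjusted p = 0.0699) and in the late cluster alone (2.77).

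GABAergic neuron-like cells had the highest Slc12a5 level of the 3 neuron classes in every library but DIV7 replicate 2. Their values were 14.3 CPM at DIV1, 10.6 and 34.4 in the DIV3 pair, 40.4 and 59.1 in the DIV5 pair, and 85.5 and 78.8 in the DIV7 pair. The 2 DIV3 values rest on 3 and 9 UMIs. The DIV3 and DIV7 libraries did not overlap, but neither did they for Slc12a2 and Wnk1, which were not called. From DIV3 to DIV7 the Slc12a5 level rose 4.03-fold (log2 2.01 ± 0.49, adjusted p = 0.0227), where 3.06% of 8376 genes were called. Without DIV3 replicate 1 this change was 1.39 (adjusted p = 0.280) and without DIV7 replicate 1 it was 1.98 (adjusted p = 0.0784), so the call rests on both, and it was also lost at the higher cluster resolution (1.84, adjusted p = 0.0637). The steps from DIV3 to DIV5 (log2 1.23 ± 0.50, adjusted p = 0.440, 0.478% of genes called) and from DIV5 to DIV7 (0.79 ± 0.37, adjusted p = 0.7998, 0.0358% called) missed the threshold. Whether the rise differed between the 3 neuron classes was not tested.

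Different clusters held the neuron classes on different days. Pyramidal cells were in cluster 2 (Tshz2, Syt4) at DIV1 (98.8%), in cluster 18 (Cck, Stmn2) at DIV3 (93.3% and 87.9%) and in cluster 27 (Rprml, Nrgn, Npas4) at DIV5 and DIV7 (91.2% to 95.2%). Within cluster 27 alone, Slc12a5 stood at 6.95 and 19.4 CPM at DIV3, 35.9 and 38.4 in the DIV5 pair, and 59.9 and 81.6 in the DIV7 pair. The change from DIV3 to DIV7 in that cluster was 2.41 ± 0.41 (adjusted p = 0.025) and was called, while the change from DIV3 to DIV5 was 1.498 (adjusted p = 0.309). Cluster 18 stood at 4.42 and 7.46 in the DIV3 pair and at 13.6 in DIV5 replicate 1. Granule cells were mostly in cluster 15 (Prox1, Neurod1, Calb2) at DIV3 (92.2% and 77.8%) and in cluster 10 (Nrgn, Kcna1, Prox1) at DIV1 (77.3%) and at DIV5 and DIV7 (63.6% to 95.6%). The 150 DIV1 cells of cluster 10 had a median of only 2726 UMIs. At resolution 2 the granule cluster led by Nrgn held 2 DIV1 cells and the one led by Prox1 held 91. An unnamed cluster there (Glra2, Kcna1; median of 2074.5 UMIs) held 121, so the granule class at DIV1 depends on the resolution. Within cluster 10 Slc12a5 was 7.82 at DIV1, 6.68 and 0 in the DIV3 pair, 20.2 and 38.9 in the DIV5 pair, and 25.0 and 12.6 in the DIV7 pair, and the DIV7 to DIV3 change of 2.42 was not called (adjusted p = 0.405). Unnamed cluster 4 (Neurod1, Eomes, Prox1), with 599 of its 718 cells from DIV1, had 0 Slc12a5 UMIs, which allows a share of cells with a UMI of up to 0.418%, and unnamed cluster 7 (Grp, Neurod6), mostly from DIV1, had 7 UMIs in 743 cells.

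Markers of other cells moved with the days in the neuron sums. The 14 radial glia and astrocyte markers summed to 476 and 863 CPM in pyramidal cells at DIV3 and to 687 and 1794 in the DIV7 pair, with 13 or 14 of the 14 detected, against 7803 to 35715 in the astrocyte-like cells. In granule cells this sum was 362 and 436 in the DIV3 pair and 841 and 1155 in the DIV7 pair, with 13 or 14 detected, and in GABAergic cells it was 328 and 477 in the DIV3 pair (11 and 10 detected, Ntsr2 and Aldoc at 0 in both) and 645 and 958 in the DIV7 pair (12 and 13 detected, Hes5 at 0). Slc12a5 in the astrocyte-like cells themselves was at 0 to 1.86 CPM. The 7 neuroblast markers summed in pyramidal cells to 1828 and 2067 in the DIV3 pair and to 770 and 1062 in the DIV7 pair (6 and 5 of 7 detected, Neurog1 at 0), in granule cells to 3016 and 3865 in the DIV3 pair and to 1888 and 2771 in the DIV7 pair (6, 6, 6 and 3 detected), and in GABAergic cells to 1177 and 1581 in the DIV3 pair and to 638 and 555 in the DIV7 pair (4, 4, 3 and 3 detected). Their part in the Slc12a5 change was not tested.

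Slc12a2, the importer, had no called change among DIV3, DIV5 and DIV7 in any neuron class. DIV1, with 1 library, was not tested against the other days. In pyramidal neuron-like cells it stood at 34.1 CPM at DIV1, 12.5 and 18.7 in the DIV3 pair, 14.5 and 22.2 in the DIV5 pair, and 21.3 and 28.6 in the DIV7 pair. The DIV1 library was the highest, and the DIV7 libraries were above those of DIV3 (log2 0.62 ± 0.32, adjusted p = 0.233). In granule cells the values were 25.1 at DIV1, 10.8 and 18.6 in the DIV3 pair, 14.8 and 13.2 in the DIV5 pair, and 21.8 and 14.3 in the DIV7 pair, with DIV3 and DIV7 overlapping (0.62 ± 0.45, adjusted p = 0.509). In GABAergic cells they were 14.3 at DIV1, 14.1 and 11.5 in the DIV3 pair, 3.91 and 20.1 in the DIV5 pair, and 15.7 and 19.7 in the DIV7 pair (0.54 ± 0.81, adjusted p = 0.768). The widest gap between libraries of one day was that of the GABAergic cells at DIV5, on 3 and 16 UMIs. Astrocyte-like cells hold Slc12a2 at 11.5 to 40.2 CPM, and the part of the astrocyte signal in these neuron values was not tested.

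The balance between the exporter and the importer was taken as the Slc12a5 share of the summed Slc12a5 and Slc12a2 UMIs. Because both genes come from the same cells, this share does not depend on the depth of a library, but a share of 50% does not mean equal amounts of transcript. In granule and GABAergic cells the importer was seen in a smaller share of cells than in microglia-like cells (below). How much of the importer in their balance is background was not tested. In pyramidal neuron-like cells the Slc12a5 share was 16.2% at DIV1 (54 and 279 UMIs), 28.0% and 32.1% in the DIV3 pair, 70.3% and 63.3% in the DIV5 pair, and 73.8% and 74.0% in the DIV7 pair. The exact 95% binomial intervals of the 3 earlier libraries reached 39.9% at most and those of the 4 later ones began at 58.0%, so the early and late libraries were apart by more than counting error. In granule cells the share was 16.7% at DIV1 (4 and 20 UMIs), 20.3% and 26.9% in the DIV3 pair, 53.8% and 68.9% in the DIV5 pair, and 52.7% and 40% in the DIV7 pair. The last value, on 2 and 3 UMIs, has an interval of 5.27% to 85.3% and cannot be placed. The DIV1 value comes from cells whose granule name depended in part on the cluster resolution. In GABAergic cells it was already 50% at DIV1 (17 and 17 UMIs), then 42.9% and 75.0% in the DIV3 pair, 91.2% and 74.6% in the DIV5 pair, and 84.5% and 80.0% in the DIV7 pair, and the intervals of DIV3, 9.90% to 81.6% and 42.8% to 94.5%, overlap those of DIV7.

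**Figure D2:**
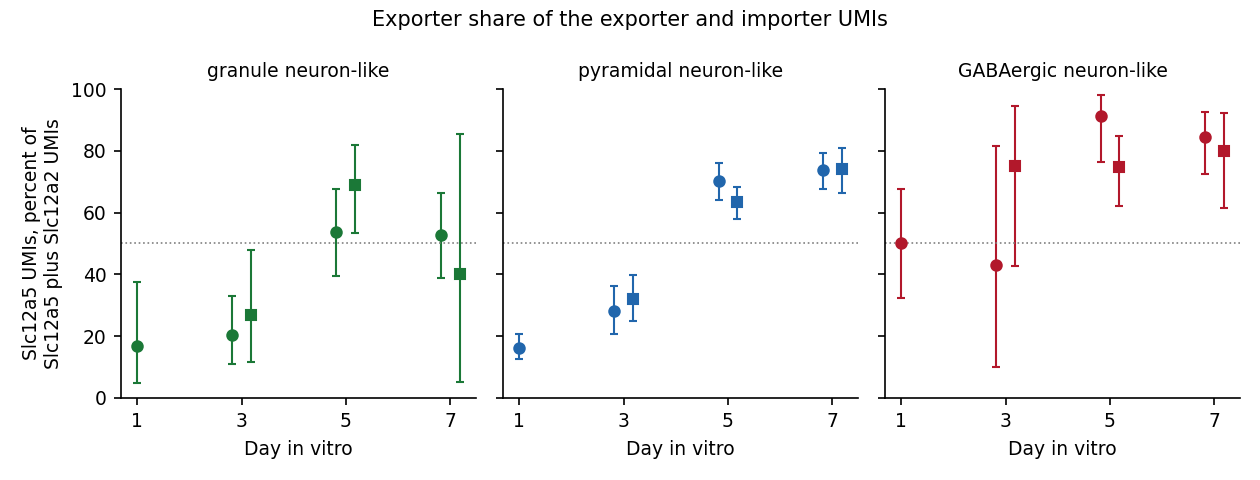
Slc12a5 UMIs as a percentage of Slc12a5 plus Slc12a2 UMIs against day in vitro in the 3 neuron-like classes, with exact 95% binomial intervals (circles: DIV1 and replicate 1; squares: replicate 2; dotted line: 50%). The pyramidal share goes from 16.2% at DIV1 to 73.8% and 74.0% in the DIV7 pair, and the GABAergic share starts at 50%.

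Over the 7 libraries the log2 ratio of Slc12a5 to Slc12a2 UMIs (0.5 added to each) was related to day in pyramidal cells, with Pearson's r = 0.961 (exact two-sided permutation test over 5040 orders, p = 0.00159, adjusted over the 3 classes 0.00476) and Spearman's rho = 0.973 (exact permutation p = 0.00317, adjusted 0.00952). Leaving out the 2 libraries farthest from the median day, DIV1 and each of the DIV3 or DIV7 libraries in turn, gave r of 0.898 to 0.927. Without DIV1 alone r was 0.929 over 6 libraries (exact permutation p = 0.0222). In granule cells r was 0.739 (exact permutation p = 0.0667, adjusted 0.0667) and rho 0.679 (p = 0.108, adjusted 0.108), and r was 0.362 to 0.739 without the 2 farthest. In GABAergic cells r was 0.728 (exact permutation p = 0.0587, adjusted 0.0667) and rho 0.771 (p = 0.0540, adjusted 0.0810), and r was 0.323 to 0.665 without the 2 farthest. Neither of these passed the threshold, and both weakened without DIV1, to 0.593 and 0.607.

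Each carrier was seen in few cells at this depth, and both were seldom seen in 1 cell. After thinning to 3000 UMIs per cell, Slc12a5 was seen in 126 of 2200 pyramidal cells (5.73%; 24.0% unthinned), in 8.72% of GABAergic cells (25.2%) and in 2.41% of granule cells (5.90%). Microglia-like cells, which should lack the gene, gave 0.710% (2.35% unthinned) at a median depth of 14059.5 UMIs, against medians of 15504.5, 8640 and 6295 in the 3 neuron classes. Thinned pyramidal shares of Slc12a5 were 1.54% at DIV1, 1.64% and 0.847% in the DIV3 pair, 12.6% and 11.4% in the DIV5 pair, and 12.6% and 22.03% in the DIV7 pair. All lay above the microglia share, and the DIV3 values, from 7 and 3 cells, were closer to it than the DIV5 and DIV7 values. Slc12a2 was seen in 5.55% of thinned pyramidal cells, 3.72% of granule cells and 3.54% of GABAergic cells, and in 4.38% of microglia-like cells. The granule and GABAergic shares thus lay below the microglia share, though their class means, 16.9 and 14.2 CPM, were above its 11.4. How much of the Slc12a2 in these 2 classes is background was not tested, and their balance carries that limit. Whether microglia-like cells hold Slc12a2 of their own was not tested. Both carriers together were seen in 8 of 2200 pyramidal, 2 of 367 GABAergic and 0 of 1451 granule cells, and the count of 0 allows up to 0.207%. With single shares this low, few cells with both are to be found in any case. Whether these counts differ from what the single shares give was not tested.

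Between the neuron classes of the same libraries, GABAergic cells had more Slc12a5 than pyramidal cells, and less Slc12a2 by a call that several alternatives did not keep. Slc12a5 was 1.56-fold higher (log2 0.65 ± 0.18, 7 libraries, edgeR adjusted p = 0.00983) and Slc12a2 lower by log2 -0.67 ± 0.24 (adjusted p = 0.0347), in a comparison where 33.0% of 10201 genes were called. The Slc12a2 call was lost without DIV1 (-0.47, adjusted p = 0.177), DIV3 replicate 2 (-0.66, adjusted p = 0.0555) or DIV5 replicate 1 (-0.53, adjusted p = 0.116), with DESeq2 (-0.65, adjusted p = 0.0773), with the stricter cell filter (-0.71, adjusted p = 0.140) and at cluster resolution 2 (-0.57, adjusted p = 0.0818). Wnk1 was lower too (-0.34 ± 0.11, adjusted p = 0.0210), a call lost without DIV5 replicate 1 (-0.27, adjusted p = 0.102) or DIV5 replicate 2 (-0.33, adjusted p = 0.0621) and with the stricter cell filter (-0.31, adjusted p = 0.130). Granule cells had 1.93-fold less Slc12a5 than pyramidal cells (log2 -0.95 ± 0.20, adjusted p = 0.000625) and less Stk39 (-0.66 ± 0.17, adjusted p = 0.00326), where 46.1% of 11473 genes were called. Both granule calls were kept without each of the 7 libraries. Since 33.0% and 46.1% of all genes were called in these comparisons, a call by itself is common.

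Outside the neurons Slc12a5 was near 0. Its mean level over libraries with at least 20 cells was 46.1 ± 29.5 CPM in GABAergic cells (SD, n = 7), 33.5 ± 29.4 in pyramidal cells (n = 7) and 13.6 ± 10.2 in granule cells (n = 7), where the SD holds the change over days. It was 4.05 ± 3.88 in Cajal-Retzius-like cells (n = 4), 1.94 ± 1.47 in ciliated-like cells (n = 4), 1.92 ± 1.45 in microglia-like cells (n = 7), 1.06 ± 1.29 in oligodendrocyte lineage-like cells (n = 6), 0.889 ± 0.785 in astrocyte-like cells (n = 6), 0.661 ± 0.545 in fibroblast-like cells and 0.277 ± 0.478 in choroid-marker cells (n = 6 each). No pair of neighbours in this order differs beyond these SDs. Cajal-Retzius-like cells, early neurons, were at 2.04 to 9.87 and after thinning showed Slc12a5 in 0.658% of cells, beside a microglia share of 0.710%. They held 11 Slc12a5 UMIs in 318 cells over all libraries, and whether these are background was not tested. Against pyramidal cells of the same libraries, astrocyte-like cells had 38.5-fold less Slc12a5 (log2 -5.27 ± 0.22, 6 libraries, adjusted p = 2.0e-09), where 70.2% of 13527 genes were called.

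**Figure D3:**
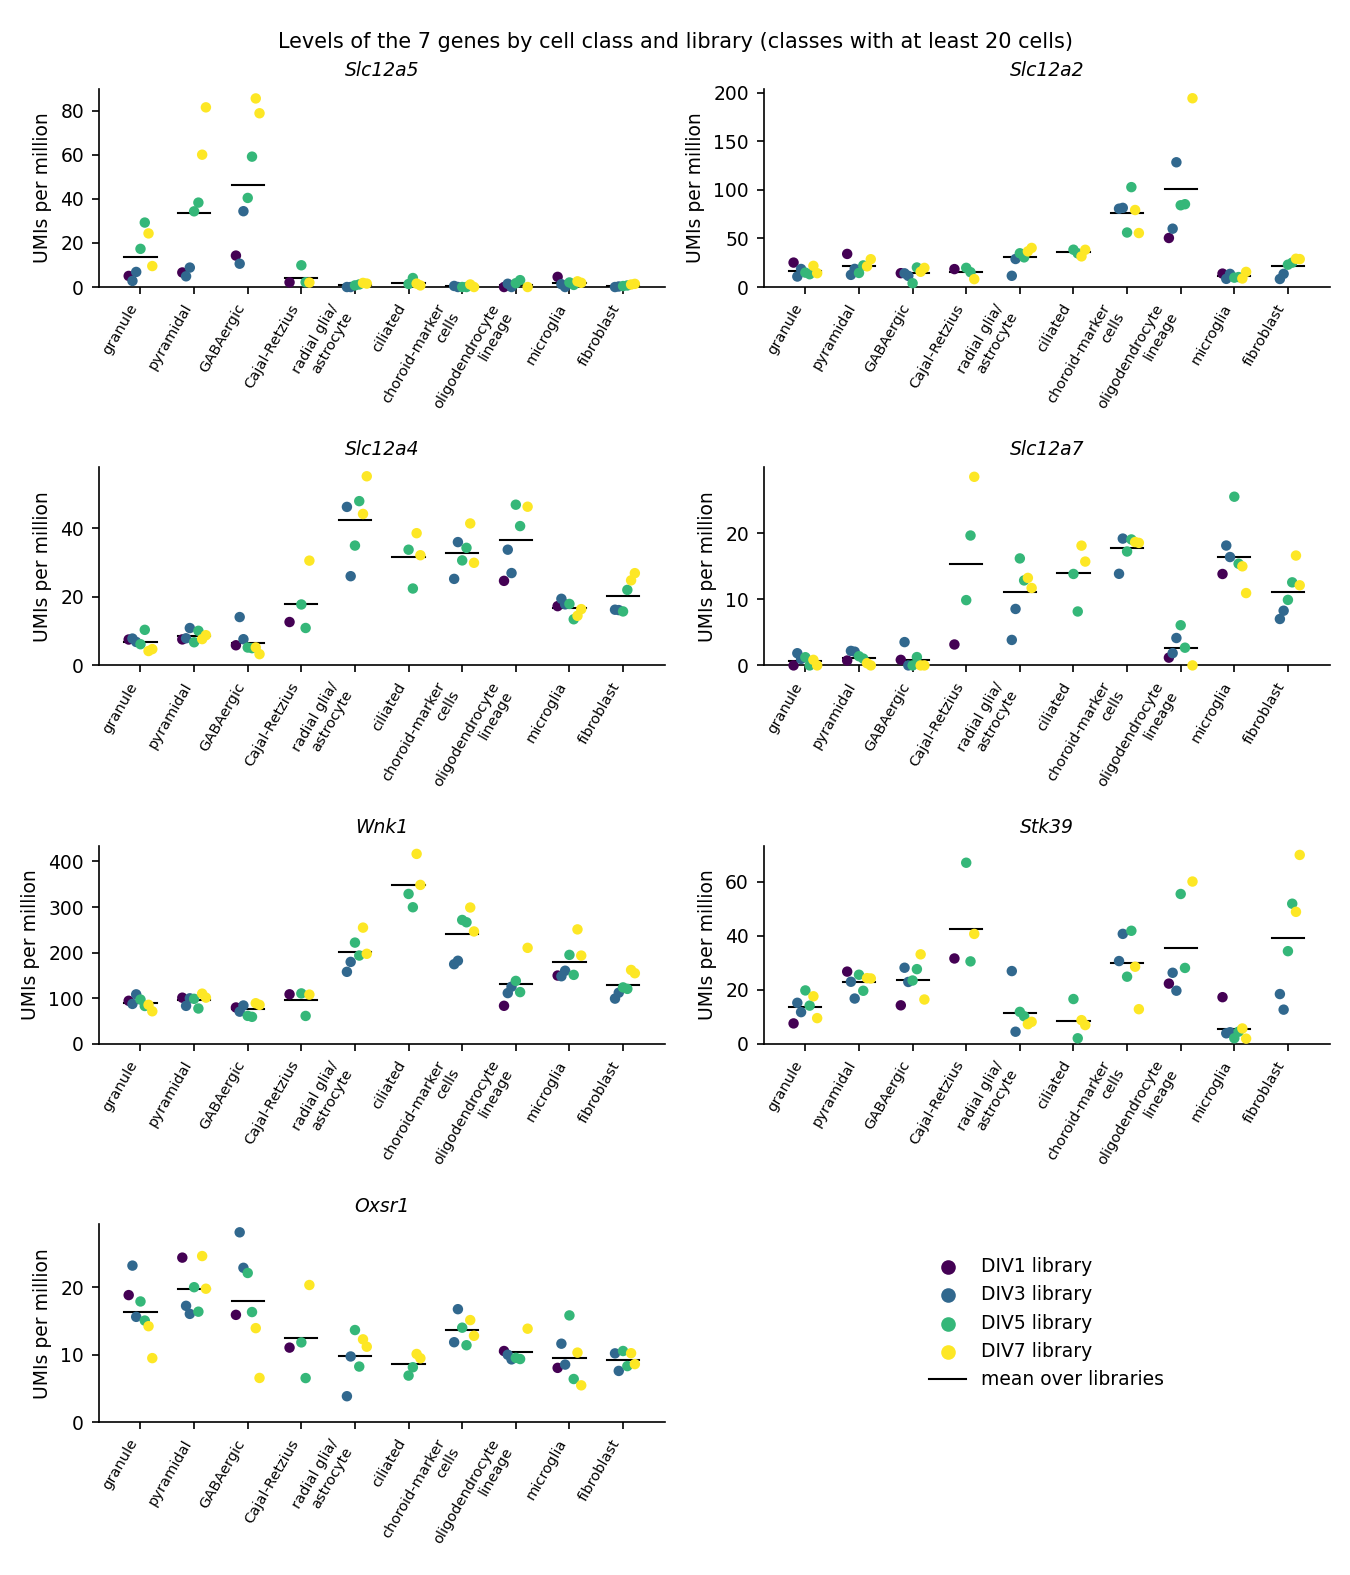
Levels of the 7 genes in CPM in 10 cell classes. Each point is a library with at least 20 cells of that class, coloured by day, and the line is the mean over libraries. Slc12a5 is high in the 3 neuron-like classes (means 13.6 to 46.1), while Slc12a2 has its highest class means in oligodendrocyte lineage-like cells (100.4) and in choroid-marker cells (76.0), a mixed gate in which 47 of 368 cells hold 271 of the 495 UMIs.

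Slc12a2 had another order of classes. Its mean was 100.4 ± 53.3 CPM in oligodendrocyte lineage-like cells (SD, n = 6), 76.0 ± 17.9 in choroid-marker cells (n = 6), 35.7 ± 3.3 in ciliated-like cells (n = 4), 30.4 ± 10.1 in astrocyte-like cells (n = 6), 25.1 ± 7.0 in mural-like cells (n = 3), 21.7 ± 7.6 in pyramidal cells (n = 7), 21.3 ± 8.5 in fibroblast-like cells (n = 6), 20.5 ± 7.1 in intermediate progenitor or neuroblast-like cells (n = 4), 16.9 ± 5.1 in granule cells (n = 7), 15.4 ± 5.2 in Cajal-Retzius-like cells (n = 4), 14.2 ± 5.5 in GABAergic cells (n = 7) and 11.4 ± 2.8 in microglia-like cells (n = 7). Only the step from choroid-marker to ciliated-like cells was larger than the spread of both neighbours, and all other neighbours in the order overlap. Thinned to 3000 UMIs, Slc12a2 was seen in 19.7% of oligodendrocyte lineage-like cells, 17.3% of choroid-marker cells, 10.3% of ciliated-like cells, 9.46% of astrocyte-like cells and 4.38% of microglia-like cells.

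In oligodendrocyte lineage-like cells Slc12a2 stood at 50.5 CPM at DIV1, 60.04 and 128 in the DIV3 pair, 84.1 and 85.2 in the DIV5 pair, and 194 in DIV7 replicate 2, while DIV7 replicate 1 had only 7 such cells. In every library that held enough of both cells it was above the astrocyte-like level, and over 5 libraries it was 2.90-fold higher (log2 1.53 ± 0.20, adjusted p = 0.000174), where 41.9% of 11947 genes were called. The class joins 2 clusters that differ in Slc12a2. Cluster 1, led by myelin genes such as Mbp, had 36.5 at DIV1, 70.8 and 166 in the DIV3 pair, and 179 and 137 in the DIV5 pair, and 344 in 17 cells of DIV7 replicate 2. Cluster 12, led by the precursor genes Pdgfra, Olig1 and Olig2, had 84.4 at DIV1, 34.8 and 67.8 in the DIV3 pair, and 42.5 and 52.8 in the DIV5 pair, and 42.0 in 19 cells of DIV7 replicate 2. From DIV3 on, each library had the higher value in the myelin gene cluster, and at DIV1 the order was the other way round. This is a description, since cells were assigned to clusters by their expression, and it was not tested. The 14 oligodendrocyte markers summed to 1349 CPM in the class at DIV1, 1815 and 2299 in the DIV3 pair, 6231 and 4361 in the DIV5 pair and 16376 in DIV7 replicate 2 (10 to 14 detected), so the class itself changed over days, and astrocyte markers in it summed to 3485 to 8755. Slc12a5 had 13 cells with a UMI among the 730.

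Choroid-marker cells had Slc12a2 at 80.6 and 81.5 CPM at DIV3, 56.1 and 103 in the DIV5 pair, and 79.2 and 55.5 in the DIV7 pair, and at 96.3 in 11 cells at DIV1. Over 6 libraries this was 2.00-fold the astrocyte-like level, and with the stricter cell filter (at least 1000 genes and at most 5% mitochondrial UMIs) the log2 difference was 0.044. These are descriptions with no test, because the gate was chosen with Slc12a2 levels in view. A few cells carried the value. Clustering at a higher resolution gave a compact group of 47 cells led by choroid plexus genes, all inside the gate, and there Slc12a2 reached 268 CPM over all libraries (271 UMIs, exact Poisson interval 237 to 302) and 27 of 45 thinned cells. In the other 321 gated cells it was at 38.9 CPM (224 UMIs, 34.0 to 44.3), from 29.4 to 50.5 per library from DIV3 on, beside 11.5 to 40.2 in astrocyte-like cells. DIV3 replicate 1 gave 624556 of the 1011428 UMIs of the compact group, and without it Slc12a2 stood at 398 in 28 cells (154 UMIs, 338 to 466). Stk39 was at 77.1 in the 47 cells, 100.8 without DIV3 replicate 1 and 19.1 in the other gated cells. The remaining 716 cells of the cluster they came from, led by Rspo3, had Slc12a2 at 27.2 to 48.2 per library. Choroid-marker sums in the gated cells ranged from 1456 to 10164 CPM, with 10 to 12 of 12 markers detected, and astrocyte markers from 2463 to 8440, so the gate holds a mixture, and its part in the level was not tested.

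Astrocyte-like cells had Slc12a2 at 11.5 and 28.8 CPM at DIV3, 34.7 and 30.5 in the DIV5 pair, and 36.7 and 40.2 in the DIV7 pair. The 2 DIV7 libraries lay above both of DIV3, but DIV3 replicate 1 had 22 such cells, and the log2 change of 0.71 ± 0.36 was not called (adjusted p = 0.241, 6 libraries in the fit). None of the 7 genes was called between DIV3 and DIV7 in these cells by edgeR, where 3.28% of 12948 genes were called and the median over all genes was 0.16, so changes stand relative to that shift. That share of called genes rests on DIV3 replicate 1: without it 0 genes were called. Against pyramidal cells Slc12a2 was 1.69-fold higher in astrocyte-like cells (log2 0.76 ± 0.16, adjusted p = 0.00111), a call lost with the stricter cell filter (0.57).

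The other exporters were higher in astrocyte-like than in pyramidal cells. Slc12a4, an exporter found in many tissues, was at 42.4 ± 10.3 CPM in astrocyte-like cells, 36.5 ± 9.6 in oligodendrocyte lineage-like cells and 32.9 ± 5.6 in choroid-marker cells (SD, n = 6 each), against 8.52 ± 1.49 in pyramidal, 6.81 ± 2.07 in granule and 6.62 ± 3.54 in GABAergic cells (n = 7 each), with 17.96 ± 8.87 in Cajal-Retzius-like cells (n = 4) and 16.7 ± 2.1 in microglia-like cells (n = 7) between them. It was 4.84-fold higher in astrocyte-like than in pyramidal cells (log2 2.28 ± 0.19, adjusted p = 4.8e-07). In pyramidal cells it held at 7.57 at DIV1, 7.90 and 10.9 in the DIV3 pair, 6.74 and 10.1 in the DIV5 pair, and 7.66 and 8.80 in the DIV7 pair, with DIV3 and DIV7 overlapping. Slc12a7, known from epithelia and the nervous system, was at 1.11 ± 0.83 in pyramidal cells (n = 7) and at 2.65 ± 2.18 in oligodendrocyte lineage-like cells (n = 6), and stood at 17.7 ± 2.0 in choroid-marker cells (n = 6), 16.4 ± 4.6 in microglia-like cells (n = 7), 15.3 ± 11.1 in Cajal-Retzius-like cells (n = 4) and 13.9 ± 4.2 in ciliated-like cells (n = 4). Within the choroid gate Slc12a7 was at 9.89 CPM in the compact group of 47 cells (10 UMIs, exact Poisson interval 4.74 to 18.2). In the other 321 gated cells, a mixture, it was at 18.2. It was 9.53-fold higher in astrocyte-like than in pyramidal cells (log2 3.25 ± 0.40, adjusted p = 1.5e-05) and lower in oligodendrocyte lineage-like than in astrocyte-like cells (log2 -2.04 ± 0.40, adjusted p = 0.00198). In Cajal-Retzius-like cells its 4 values were 3.16 at DIV1, 9.87 and 19.6 in the DIV5 pair and 28.5 in DIV7 replicate 1. Slc12a7 was too low to be tested between days in granule and GABAergic cells, as was Slc12a4 in GABAergic cells, and in pyramidal cells its log2 change from DIV3 to DIV7 of -3.17 ± 1.11, on levels of at most 2.19, was not called (adjusted p = 0.0876).

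Wnk1, the kinase at the head of the cascade, was found in every class, and its means in the 3 neuron classes lay below those in glia. Its mean was 348 ± 49.7 CPM in ciliated-like cells (n = 4), 240 ± 50.7 in choroid-marker cells, 201 ± 33.8 in astrocyte-like cells and 130 ± 43.3 in oligodendrocyte lineage-like cells (n = 6 each), and 95.9 ± 11.4 in pyramidal, 89.6 ± 11.8 in granule and 75.53 ± 12.01 in GABAergic cells (n = 7 each). Within the choroid gate Wnk1 was at 186 in the compact group of 47 cells and at 250 in the other 321 cells. Astrocyte-like cells had 2.20-fold more Wnk1 than pyramidal cells (log2 1.14 ± 0.12, adjusted p = 3.7e-06), and oligodendrocyte lineage-like cells had less than astrocyte-like cells (log2 -0.74 ± 0.15, adjusted p = 0.00288). In pyramidal cells Wnk1 varied between 77.4 and 110 over the 7 libraries, with no called change among DIV3, DIV5 and DIV7.

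Stk39, the gene of SPAK, was higher in oligodendrocyte lineage-like cells than in astrocyte-like cells, by 3.13-fold (log2 1.65 ± 0.30, edgeR adjusted p = 0.00129). In choroid-marker cells it was 2.59-fold higher (1.37 ± 0.29, adjusted p = 0.00230), a call lost with the stricter cell filter (0.80, adjusted p = 0.349). That gate was chosen with Slc12a2 levels in view and is a mixture. Stk39 stood at 77.1 CPM in its compact group of 47 cells and at 19.1 in the other 321 cells. Whether Stk39 goes with Slc12a2 over the classes was not tested. The oligodendrocyte values were 22.3 CPM at DIV1, 26.3 and 19.7 in the DIV3 pair, 55.5 and 28.1 in the DIV5 pair, and 60.1 in DIV7 replicate 2. Astrocyte-like cells had 26.9 and 4.47 in the DIV3 pair, 11.8 and 10.2 in the DIV5 pair, and 7.26 and 8.13 in the DIV7 pair, the first of these from 22 cells. In neurons the mean was 22.9 ± 3.5 in pyramidal, 23.7 ± 6.7 in GABAergic and 13.6 ± 4.4 in granule cells (n = 7 each), and pyramidal cells had 2.30-fold more than astrocyte-like cells (log2 -1.20 ± 0.21 for astrocyte-like against pyramidal, adjusted p = 0.000295). The highest class means were those of Cajal-Retzius-like cells, 42.5 ± 17.0 (n = 4), and fibroblast-like cells, 39.4 ± 21.7 (n = 6).

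Oxsr1, the gene of OSR1, was higher in pyramidal than in astrocyte-like cells. Its mean was 19.8 ± 3.6 CPM in pyramidal, 18.003 ± 7.06 in GABAergic and 16.4 ± 4.3 in granule cells (n = 7 each), against 13.7 ± 2.0 in choroid-marker, 10.4 ± 1.7 in oligodendrocyte lineage-like and 9.84 ± 3.49 in astrocyte-like cells (n = 6 each), while Cajal-Retzius-like cells stood at 12.5 ± 5.8 (n = 4). Astrocyte-like cells had 1.72-fold less than pyramidal cells (log2 -0.78 ± 0.17, adjusted p = 0.00139). None of the 3 kinases was called among DIV3, DIV5 and DIV7 in any neuron class.

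**Figure D4:**
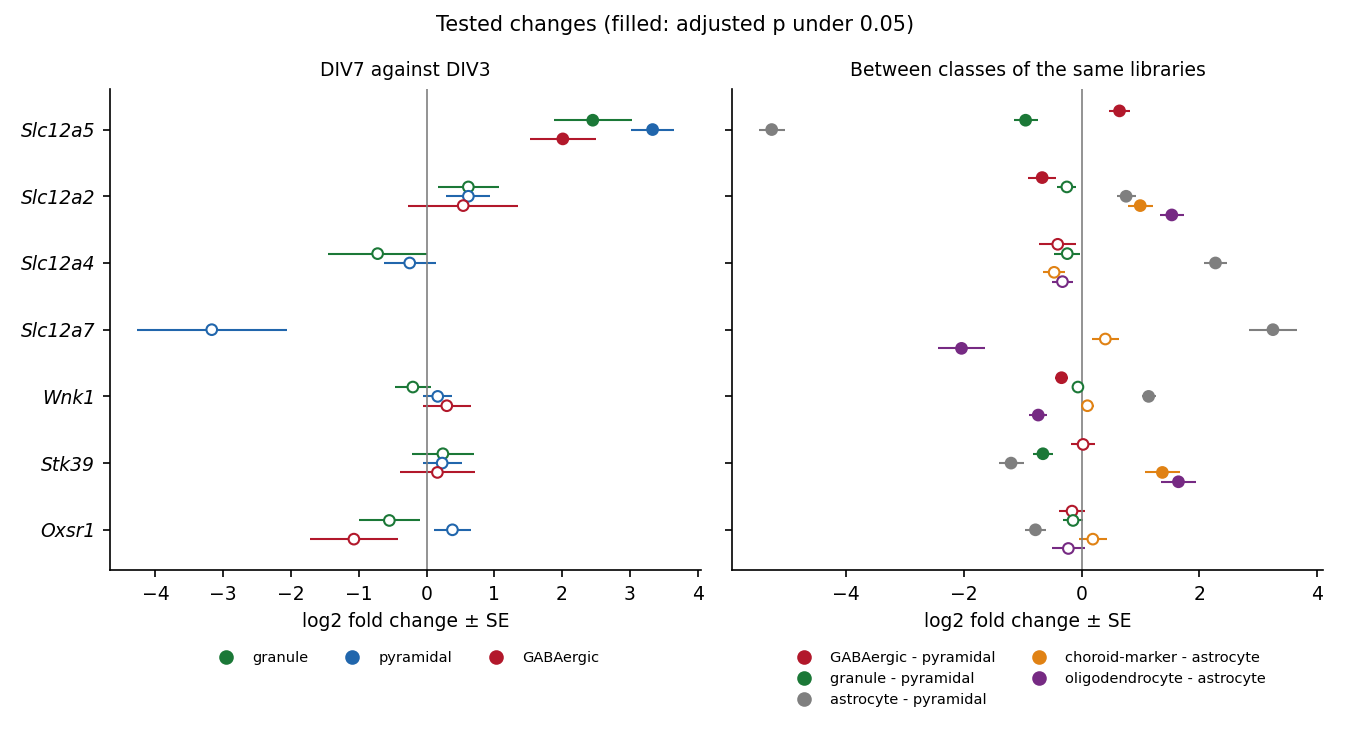
Log2 fold changes ± SE of the 7 genes by edgeR, for DIV7 against DIV3 in the 3 neuron-like classes (left) and between classes of the same libraries (right). Filled points have an adjusted p under 0.05 over all genes tested. On the left, Slc12a5 alone is filled, at 3.34, 2.45 and 2.01, and on the right all 7 genes are filled for astrocyte-like against pyramidal cells. The choroid-marker point of Slc12a2 is a description only, since that gate was chosen with its levels in view.

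Across all 7 members, 1 of 7 tested rose from DIV3 to DIV7 in pyramidal cells, 1 of 6 in granule cells and 1 of 5 in GABAergic cells, Slc12a5 each time, beside the 11.0%, 3.54% and 3.06% of all genes called. All 7 were called between astrocyte-like and pyramidal cells, 4 higher and 3 lower, in a comparison that called 70.2% of genes.

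From DIV3 to DIV7, 11.0%, 3.54% and 3.06% of all genes were called in pyramidal, granule and GABAergic cells. Among 14 other SLC12 carriers and WNK-SPAK pathway genes, 1 of 10 tested rose in each of these classes. It was Klhl3, an adaptor that directs WNK kinases to degradation, in pyramidal (log2 1.58 ± 0.27, adjusted p = 0.00464) and granule cells (2.53 ± 0.46, adjusted p = 0.00444), and Cab39l, a scaffold that activates SPAK and OSR1, in GABAergic cells (2.67 ± 0.65, adjusted p = 0.0211). The list medians were 0.19, -0.01 and 0.52, beside medians over all genes of -0.04, -0.02 and -0.02. Klhl3 was lost without DIV7 replicate 1 in pyramidal cells (1.46), and without DIV3 replicate 1 (2.52) or DIV7 replicate 1 (2.01) in granule cells. With the stricter cell filter it was lost in pyramidal (1.51) and granule cells (1.88), and in the late cluster alone it was lost in both. Cab39l was lost without DIV3 replicate 1 (2.38), DIV3 replicate 2 (3.04) or DIV7 replicate 1 (1.97). The kidney carriers Slc12a1 and Slc12a3 had 0 to 11 UMIs in each neuron class over all libraries. Between classes the counts stand beside 33.0% of all genes called for GABAergic against pyramidal cells, 46.1% for granule against pyramidal, 70.2% for astrocyte-like against pyramidal, 32.9% for choroid-marker against astrocyte-like and 41.9% for oligodendrocyte lineage-like against astrocyte-like cells. Of this list 1 of 10 was higher and 3 lower in GABAergic than pyramidal cells, 1 higher and 5 lower in granule than pyramidal cells, and 1 higher and 8 lower in astrocyte-like than pyramidal cells, with Klhl3 (-2.86 ± 0.25, adjusted p = 7.4e-07) and the kinase gene Wnk3 (-2.39 ± 0.23, adjusted p = 1.7e-06) among the lower. Choroid-marker cells had 3 higher and 1 lower against astrocyte-like cells, and oligodendrocyte lineage-like cells 0 higher and 1 lower, Nedd4l, a ubiquitin ligase gene, whose call was lost without DIV5 replicate 2 (-0.77).

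Of 14 partners and regulators of KCC2, 2 of 12 tested rose from DIV3 to DIV7 in granule cells, 1 of 14 rose and 1 fell in pyramidal cells, and 2 of 11 rose in GABAergic cells. The shares of all genes called were 3.54%, 11.0% and 3.06%, and the pyramidal count is near its share. Ntrk2, the BDNF receptor gene, rose in granule (log2 2.93 ± 0.40, adjusted p = 0.00444) and GABAergic cells (1.48 ± 0.29, adjusted p = 0.00443), and its ligand gene Bdnf rose in granule cells (1.77 ± 0.30, adjusted p = 0.00760). Ntrk2 was at 950.4 CPM in the astrocyte-like cells against 113 in granule and 344 in GABAergic cells over all libraries, beside the astrocyte markers that were higher at DIV7, whose part was not tested. Egr4, a transcription factor known to act on the Slc12a5 promoter, rose in GABAergic cells (3.72 ± 0.82, adjusted p = 0.0483). In pyramidal cells Epb41l1, a cytoskeletal protein gene, rose (0.94 ± 0.28, adjusted p = 0.0480) and Ckb, the brain creatine kinase gene, fell by 1.01 ± 0.24 (adjusted p = 0.0220). From DIV3 to DIV5 the called genes of this list were Bdnf and Ntrk2 in granule cells, 2 of 12, beside 0.948% of all genes. Of these calls, Bdnf was lost without DIV7 replicate 1 (1.42) and, at DIV5, without DIV3 replicate 1 (1.21). Ntrk2 was lost in granule cells without DIV7 replicate 1 (3.13) or DIV7 replicate 2 (2.76), at DIV5 without DIV1 (2.03), DIV3 replicate 1 (1.53) or either DIV7 library (2.03 each), and in GABAergic cells without DIV3 replicate 1 (1.251). Egr4 was lost without DIV1 (3.67), DIV3 replicate 1 (4.47) or DIV3 replicate 2 (3.26). Ckb was lost without DIV3 replicate 1 (-0.78), DIV7 replicate 1 (-0.85) or DIV7 replicate 2 (-1.15), and Epb41l1 without those (0.56, 0.92 and 1.00) or DIV5 replicate 1 (0.94). The medians for DIV7 against DIV3 were 0.19, 0.16 and 0.08 in granule, pyramidal and GABAergic cells. Between classes 2 were higher and 3 lower of 11 in GABAergic than pyramidal cells (33.0% of all genes called), 5 higher and 4 lower of 12 in granule than pyramidal cells (46.1%), and 7 higher and 6 lower of 14 in astrocyte-like than pyramidal cells (70.2%), with Rest, a repressor of neuronal genes, higher (3.39 ± 0.26, adjusted p = 2.2e-07). Against astrocyte-like cells 1 of 13 was higher and 5 lower in choroid-marker cells (32.9% of all genes called), and 3 of 14 higher and 6 lower in oligodendrocyte lineage-like cells (41.9%).

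Of 19 other chloride, bicarbonate and volume-regulation genes, 1 of 18 tested rose from DIV3 to DIV7 in pyramidal cells, Slc4a10, a neuronal sodium bicarbonate transporter gene (log2 2.25 ± 0.51, adjusted p = 0.0210), and 0 of 14 and 0 of 15 were called by edgeR in granule and GABAergic cells. The shares of all genes called were 11.0% in pyramidal, 3.54% in granule and 3.06% in GABAergic cells. Slc4a10 was lost without DIV3 replicate 1 (1.63), DIV7 replicate 1 (1.98) or DIV7 replicate 2 (2.45). The medians were 0.30 in pyramidal, 0.19 in granule and 0.00 in GABAergic cells. Slc4a10 was the member of this list with the smallest p between astrocyte-like and pyramidal cells, lower in astrocyte-like cells (-5.12 ± 0.32, adjusted p = 4.2e-08), where 7 of 17 were higher and 8 lower beside 70.2% of all genes called. Car2, a carbonic anhydrase gene, was higher in GABAergic than in pyramidal cells (3.30 ± 0.29, adjusted p = 1.5e-07), where 2 of 15 were higher and 3 lower (33.0% of all genes), and in granule against pyramidal cells 5 of 17 were higher and 6 lower (46.1%). Against astrocyte-like cells 2 of 17 were higher and 5 lower in choroid-marker cells (32.9% of all genes), with the anion exchanger gene Slc4a2 higher (1.63 ± 0.22, adjusted p = 0.000105), and 3 of 16 were higher and 6 lower in oligodendrocyte lineage-like cells (41.9%). In astrocyte-like cells, where 3.28% of all genes were called, 1 gene of each list rose from DIV3 to DIV7, namely Sgk1 (1.99 ± 0.41, 1 of 11), Ntrk2 (2.97 ± 0.34, 1 of 14) and Slc4a4 (2.97 ± 0.60, 1 of 16), with list medians of 0.52, 0.24 and 0.84 beside 0.16 over all genes. All 3 were lost without DIV3 replicate 1 (1.69, 2.58 and 2.88), and Sgk1 and Slc4a4 also without DIV3 replicate 2 (2.91 and 3.00) or DIV7 replicate 2 (1.60 and 2.23). In all, each of the 15 calls between days taken from these lists was lost without at least 1 library, as were 3 of the 43 named calls between classes. Other alternatives also lost 12 of the 15 and 12 of the 43 at least once, and for the calls between classes this was mostly the stricter cell filter.

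Over 67 sums of 12 classes and 7 libraries, the genes whose log2 level followed Slc12a5 most closely, among 6688 genes, included Npas4 (Pearson's r = 0.900), Egr4 (0.884), Dlg2 (0.869) and Psd (0.867). Npas4 and Egr4 are activity-regulated transcription factor genes, and Dlg2 encodes a postsynaptic scaffold. For Slc12a2 the closest were Abcd3 (0.701), Gab1 (0.697), Map3k7 (0.691), Col9a3 (0.691) and Klhl13 (0.690), so its pattern was matched less closely by any other gene. The points share libraries and depth, and these values are a description with no test.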

How the data were processed

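The authors deposited 1 matrix of UMI counts per gene and cell barcode for each of 7 libraries, without normalization. The submitters' processing notes name Cell Ranger 4.0.0 and the mm9 build. Each library's total count is given in the report as its depth, and Poisson or binomial intervals cover counting error only.

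A barcode was kept if it had 500 or more detected genes and no more than 10% mitochondrial UMIs, and Scrublet (scanpy 1.11.5, Python 3.11.15), at an expected 0.8% per 1000 barcodes, called 178 of 28050 scored barcodes (0.635%), which were removed. Cells were clustered on 2000 variable genes without the 7 members and 47 listed genes (40 components, 15 neighbours, Leiden resolution 1.5, leidenalg 0.10.2, seed 1), and 23 of 37 clusters were named by marker lists: a score of at least 0.25 and 1.25 times that of the next list, at least 3 markers, and markers among the top 10 genes. The naming thresholds and the gate for choroid-marker cells were set after the clusters were seen. Classes with under 20 cells in a library were left out there.

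UMIs were summed per class and library, and the sums were tested with edgeR 4.0.16 (R 4.3.3; TMM, quasi-likelihood, Benjamini-Hochberg over all genes, threshold 0.05). Day was a factor over the libraries of a class, and classes were compared with the library as a block. DIV1 has 1 library and got no contrast with other days. An SE is the size of the log2 change divided by the square root of F. A gene filtered as too low was not tested. Cells were thinned to 3000 UMIs for shares. The tests were tested on simulated data. All 7 members are named in each comparison, and from each list up to 3 genes with the smallest p among those past the test. Of the genes whose levels followed a cotransporter most closely, not every one is reported here. The members and lists were chosen with earlier results of these data known. Alternatives were DESeq2 1.42.0, other scalings and filters, other class definitions and leaving out each library. The late clusters alone, the unnamed immature clusters added and the balance without DIV1 were added after seeing the data. Promoter windows are RefSeq's (GRCm38.p6).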

Additional observations from a re-analysis of the deposited data

Results flagged for a closer look

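Oxsr1, the gene of the kinase OSR1, had values on opposite sides of 0 in the neuron classes. From DIV3 to DIV7 its log2 change was 0.38 in pyramidal neuron-like cells, where both DIV7 libraries lay above both DIV3 libraries, and -0.55 in granule and -1.07 in GABAergic neuron-like cells, where both DIV7 libraries lay below both of DIV3. None of the 3 changes was called by edgeR, and the difference between the classes was not tested. Both DIV7 libraries also lay above both of DIV3 for the uncalled Slc12a2 and Wnk1 in pyramidal and GABAergic cells. Such a separation is thus not particular to Oxsr1. The sign of the Oxsr1 change turned in pyramidal cells with the stricter cell filter (-0.11) and in granule cells in the late cluster alone (0.063). With 2 libraries a day, and 36 granule and 25 GABAergic cells in DIV7 replicate 2, these values rest on few UMIs.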

How the results depend on the processing

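For 123 results, 1747 alternative values were computed. Of these 1585 kept their direction and their side of the threshold, 121 lost the call, 11 gained one and 30 changed sign, all in changes that were not called. The cause was not tested. The rise of Slc12a5 from DIV3 to DIV7 in pyramidal cells was called under every alternative run. In granule cells it was not called with DESeq2 (2.19), as a linear trend per 4 days (2.04), with the stricter cell filter (1.61) or in the late cluster alone (2.42), and it ranged from 1.33 to 2.93 when 1 library was left out. In GABAergic cells it was not called at cluster resolution 2 (1.84) and ranged from 1.39 to 3.05 with 1 library left out. The Slc12a2 difference between choroid-marker and astrocyte-like cells was 0.044 with the stricter cell filter. The correlation of the balance with day passed its threshold in granule cells with the stricter filter (0.871), doublets kept (0.839), neurons taken by marker UMIs (0.928), resolution 2 (0.837) and immature clusters added (0.859), and ranged from 0.593 to 0.866 with 1 library left out. In GABAergic cells it passed by the same unadjusted rule with a prior of 5 UMIs (0.803) and at resolution 2 (0.754), and ranged from 0.607 to 0.836.

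Changes of sign in DIV7 against DIV3 were as follows. The linear trend gave Slc12a2 -0.0404 in granule and -0.11 in pyramidal cells, and Slc12a4 0.0046 in pyramidal cells. The stricter filter gave Slc12a2 -0.74 and Stk39 -0.0639 in granule cells and Oxsr1 -0.11 in pyramidal cells. The late cluster alone gave Oxsr1 0.063 in granule cells, and Slc12a2 -0.13 and Wnk1 -0.0899 in pyramidal cells. Marker UMIs gave Stk39 -0.15 in pyramidal cells. With 1 library left out Stk39 ranged from -0.49 to 0.50 in granule, -0.48 to 0.47 in GABAergic and -1.64 to 0.77 in astrocyte-like cells. Slc12a5 from DIV5 to DIV7 in granule cells was 0.51 with marker UMIs and 0.13 with immature clusters added, and ranged from -1.23 to 0.29. Between GABAergic and pyramidal cells Stk39 was -0.0025 with total counts and -0.072 without the low-count filter and ranged from -0.080 to 0.24, and Oxsr1 was 0.10 with the stricter filter. Wnk1 in granule against pyramidal cells was 0.017 with that filter. Oxsr1 in oligodendrocyte lineage-like against astrocyte-like cells was 0.051 with total counts and ranged from -0.33 to 0.039.

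Libraries of different days share only a replicate number: the differences between replicates 1 and 2 correlated between days at 0.0939 to 0.341 over genes. With the replicate block Slc12a5 rose by 3.37 in pyramidal, 2.60 in granule and 2.03 in GABAergic cells from DIV3 to DIV7, was 0.10 in granule cells from DIV5 to DIV7, and Stk39 was 0.18 in astrocyte-like cells. Counts of genes called between DIV3 and DIV7 moved with the setting: pyramidal 1433 (89 to 2951, 2519 with the block, 210 and 345 when DIV7 replicate 1 or 2 was left out, 579 and 2951 when DIV3 replicate 1 or 2 was), granule 355 (6 to 979, 979 with the block, 40 without DIV3 replicate 1 and 28 without DIV7 replicate 1), GABAergic 256 (58 to 781, 514 with the block and 58 without DIV3 replicate 1) and astrocyte-like 425 (0 to 2554, 0 without DIV3 replicate 1 and 20 without DIV7 replicate 2). For GABAergic cells, marker UMIs left a test of DIV7 against DIV5 only (5 genes called) and the stricter filter one of DIV5 against DIV3 only (55 called), so DIV7 against DIV3 was not run under either.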
